A study of Mus musculus with 9 samples.

Results

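The genes for the synthesis of leukotrienes and prostaglandins were followed in mouse blood after polytrauma (PT), alone or with hemorrhagic shock (PT + HS). The set held 9 genes, chosen by name, of 18194 genes measured: Pla2g4a, Alox5, Alox5ap, Lta4h, Ltc4s, Alox15, Ptgs2, Ptges and the receptor gene Cysltr1. Each gene was read from its brightest probe set, that is the one with the largest mean of all 9 arrays among those with exactly 1 gene symbol, and all 9 genes had one. In the means, Alox15 was 1.64-fold lower in PT and 1.78-fold lower in PT + HS than in control (Ctrl) mice, and Cysltr1 was 2.08-fold higher in PT + HS than in Ctrl. These 3 differences passed the thresholds of the study (p under 0.05 without adjustment, together with a change of at least 1.5-fold), and none of them passed an adjustment over all genes.

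All 9 mice were C57BL/6, 8 to 9 weeks old, with 3 mice and 3 arrays per group. Ctrl mice received no injury and their blood was drawn once anesthesia had been induced. PT mice had a traumatic brain injury, a closed fracture of the femur with soft tissue injury and a blunt trauma to both sides of the chest, and blood was drawn 4 h later. PT + HS mice were bled from 1 h after the same trauma to a mean arterial pressure of 30 mmHg, which was held for 60 min, and then received 4 times the lost volume as electrolyte solution over 30 min, with norepinephrine as needed. Both injured groups stayed under sevoflurane and received buprenorphine and catheters, which cannot be told apart from the trauma in a comparison with Ctrl. Blood was taken by cardiac puncture into RNA-stabilizing tubes without separation of cells. The values therefore hold RNA of leukocytes, platelets and immature red cells, and fewer cells of a type cannot be told apart from less RNA per cell.

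Leukotrienes and prostaglandins are lipid mediators made from arachidonic acid, which cytosolic phospholipase A2 (Pla2g4a) cuts from membranes. In the leukotriene branch, 5-lipoxygenase (Alox5) acts with its activating protein (Alox5ap), and the product is turned either into leukotriene B4, a neutrophil attractant, by Lta4h or into the cysteinyl leukotrienes by Ltc4s, which act on the receptor Cysltr1. In the prostaglandin branch, cyclooxygenase 2 (Ptgs2) and prostaglandin E synthase (Ptges) make prostaglandin E2, whereas Alox15, the 12/15-lipoxygenase, makes other lipids, among them precursors of lipoxins.

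Values are log2 signals after robust multiarray average, so that a difference of 1 is a doubling of the signal. The median over all 45101 deposited probe sets was between 3.63 and 3.76 on each array. PT replicate 2 stood apart, with correlations of 0.900 to 0.944 with the other arrays, whereas the other 8 arrays correlated at 0.958 or above with each other. The deposited table gives no detection calls. Alox15, Ptgs2, Ptges and Cysltr1 had means below 4.29, the median over all genes, and whether their signal was above background is not known here. Differences were tested with limma over all 9 arrays, with Benjamini-Hochberg adjustment over 18194 genes. The p-values measure the spread between these 9 mice, and their small number limits the precision.

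Alox15 was the only one of the 9 genes for which all injured mice lay apart from all Ctrl mice. Its log2 signal was 4.21, 4.90 and 4.74 in the Ctrl mice, 4.00, 3.96 and 3.74 in the PT mice and 3.73, 3.67 and 3.96 in the PT + HS mice. The 6 injured mice were the lower ones, and the PT and PT + HS mice overlapped. The mean was 4.62 ± 0.36 (SD of 3 mice) in Ctrl mice, 3.90 ± 0.14 in PT mice and 3.79 ± 0.15 in PT + HS mice. The difference from Ctrl was -0.72 ± 0.21 (SE) in PT, with a 95% interval of -1.18 to -0.26 and a limma adjusted p of 0.608. In PT + HS it was -0.83, with an interval of -1.29 to -0.37 and a limma adjusted p of 0.463. PT + HS and PT differed by -0.12, with an interval of -0.57 to 0.34. With the mean of both injured groups set against Ctrl, which uses the same arrays again, the difference was -0.77 ± 0.18 and the limma adjusted p 0.286.

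Alox15 is known from eosinophils, some macrophages and maturing red cells, and the markers of these cells were measured beside it. All 6 eosinophil markers had means below the median gene, among them Prg2, a granule protein, and Il5ra, a subunit of the interleukin-5 receptor. The mean over the list was 3.17 to 3.29 in Ctrl mice, 3.01 to 3.36 in PT mice and 3.14 to 3.27 in PT + HS mice, and no eosinophil marker passed the study's thresholds. The mean over 7 red cell precursor markers was 7.93 to 8.83 in Ctrl mice, 8.22 to 9.02 in PT mice and 8.18 to 8.56 in PT + HS mice. None of these 7 passed the thresholds either, and their differences from Ctrl had a median of 0.15 for PT and 0.12 for PT + HS, against -0.72 and -0.83 for Alox15. The single markers ran from -0.14 to 0.32 in PT and from -0.79 to 0.25 in PT + HS. Of 10 monocyte markers, 1 passed the thresholds as higher and 4 as lower in PT than in Ctrl. In PT + HS, 1 passed as higher and 1 as lower. Of all genes, 1.41% passed as higher and 2.26% as lower in PT, and 1.99% and 1.29% in PT + HS. The part of these cells in the Alox15 values was not tested.

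**Figure D1:**
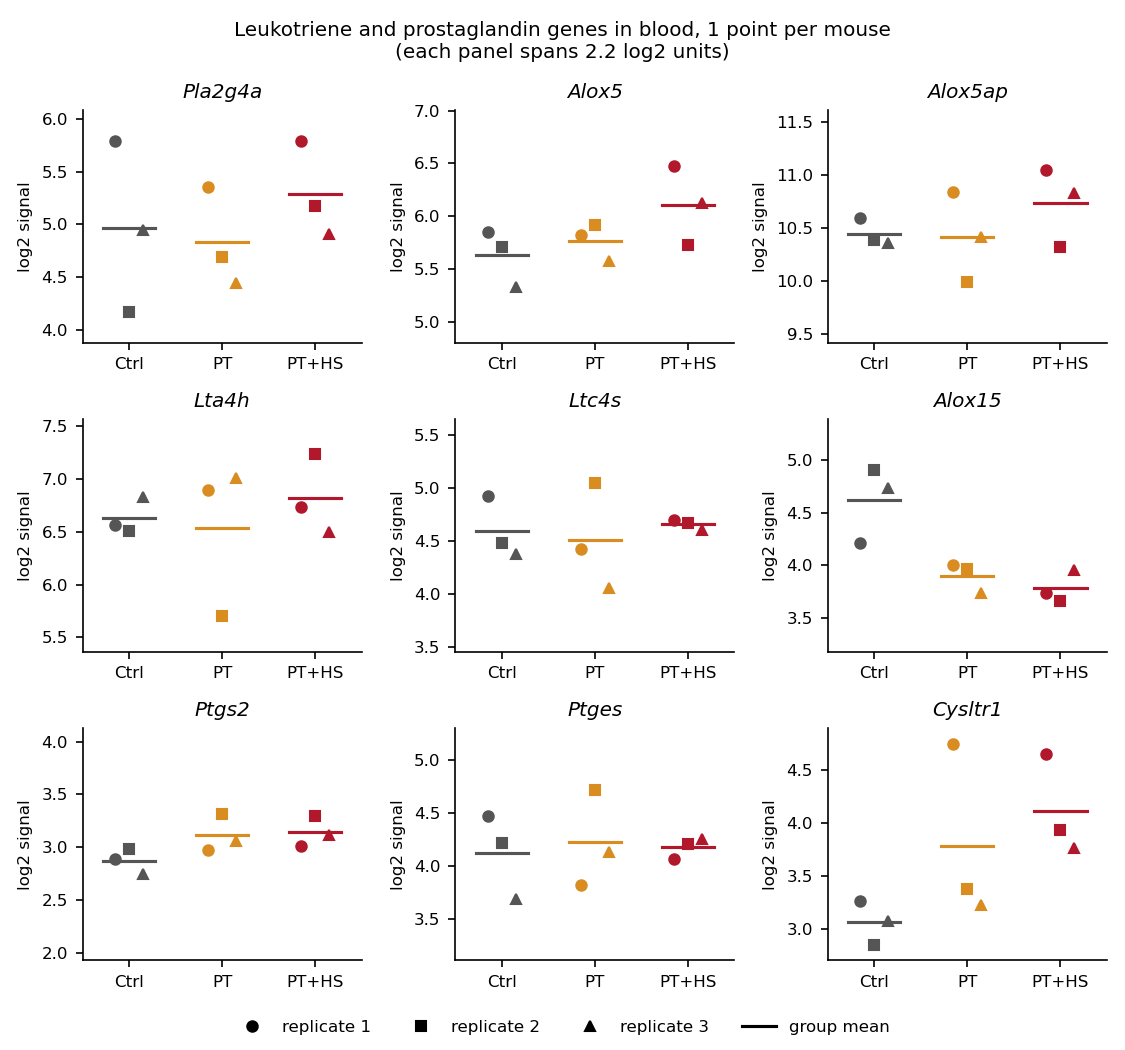
Log2 signal (vertical axis, each panel spanning the same number of log2 units) of the 9 genes in each mouse of the Ctrl, PT and PT + HS groups, with 1 symbol per replicate number and a line at the group mean. For Alox15 all 6 injured mice lie below the 3 Ctrl mice, and for Cysltr1 PT replicate 1 at 4.75 lies far above the other PT mice at 3.37 and 3.22.

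Cysltr1, the receptor for leukotriene D4 and C4 on myeloid cells, was higher after injury. Its log2 signal was 3.27, 2.85 and 3.08 in the Ctrl mice, 4.75, 3.37 and 3.22 in the PT mice and 4.65, 3.94 and 3.77 in the PT + HS mice. All 3 PT + HS mice lay above all 3 Ctrl mice. Among the PT mice, replicate 1 lay above all PT + HS mice, replicates 2 and 3 lay below all of them, and replicate 3 lay below the highest Ctrl mouse. PT + HS exceeded Ctrl by 1.05 ± 0.39 (SE), with a 95% interval of 0.19 to 1.92 and a limma adjusted p of 0.862. PT exceeded Ctrl by 0.72, with an interval of -0.15 to 1.59 and a limma adjusted p of 0.950, which did not pass the study's thresholds. The value became 0.24 if PT replicate 1 was left out and 0.92 if PT replicate 2 was. PT + HS and PT differed by 0.33, with an interval of -0.53 to 1.20, and without PT replicate 1 by 0.82, which then passed the thresholds. The PT + HS call was lost without Ctrl replicate 2, at a difference of 0.95, and without PT + HS replicate 1, at 0.79.

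Cysltr1 was also read by a dimmer probe set, on which the groups lay close together. There, signals were 2.82 to 2.99 in Ctrl mice, 2.87 to 3.0 in PT mice and 2.88 to 3.13 in PT + HS mice, a difference of 0.11 between PT + HS and Ctrl. With both probe sets averaged the difference between PT + HS and Ctrl was 0.58, just short of the fold threshold. Cysltr1 is found on myeloid cells, and most neutrophil markers were higher in the injured groups. The mean over 13 of them, led by S100a8 and S100a9, the subunits of calprotectin, was 6.38 to 7.75 in Ctrl mice, 7.39 to 8.86 in PT mice and 7.90 to 9.14 in PT + HS mice. Of these, 6 passed the thresholds as higher in PT and 8 in PT + HS, against 1.41% and 1.99% of all genes. None passed as lower, and 7 in PT and 5 in PT + HS were not called. The part of the neutrophils in the Cysltr1 values was not tested.

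In the leukotriene branch itself no synthesis gene passed the thresholds. Alox5 had a log2 signal of 5.85, 5.70 and 5.33 in the Ctrl mice, 5.82, 5.91 and 5.57 in the PT mice and 6.48, 5.72 and 6.12 in the PT + HS mice. The highest PT + HS mice lay above all Ctrl mice, but PT + HS replicate 2 fell inside the Ctrl range. The difference between PT + HS and Ctrl was 0.48, with an interval of -0.03 to 0.99. It passed the thresholds without Ctrl replicate 1, at 0.59, and without PT + HS replicate 2, at 0.67. Between PT and Ctrl the difference was 0.14, with an interval of -0.37 to 0.65.

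Alox5ap, which presents arachidonic acid to the 5-lipoxygenase, had a log2 signal of 10.60, 10.38 and 10.36 in the Ctrl mice, 10.84, 9.98 and 10.42 in the PT mice and 11.04, 10.32 and 10.83 in the PT + HS mice. All groups overlapped. Within each group replicate 1 was the highest. The differences from Ctrl were -0.03 in PT and 0.29 in PT + HS, each with an SE of 0.25.

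The enzymes after Alox5 divide the pathway between leukotriene B4 and the cysteinyl leukotrienes. Lta4h had a log2 signal of 6.56, 6.51 and 6.83 in the Ctrl mice, 6.89, 5.70 and 7.01 in the PT mice and 6.73, 7.23 and 6.50 in the PT + HS mice. Its lowest value, 5.70, was on PT replicate 2, the array that stood apart. The difference between PT and Ctrl was -0.10 with this array and 0.32 without it, and neither value passed the thresholds. PT + HS differed from Ctrl by 0.19 ± 0.34 (SE). The 2 other probe sets of Lta4h gave -0.33 and 0.20 for the same comparison, so that the probe sets did not share a direction.

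Ltc4s, which joins glutathione to leukotriene A4, had a log2 signal of 4.93, 4.48 and 4.38 in the Ctrl mice, 4.43, 5.05 and 4.05 in the PT mice and 4.70, 4.67 and 4.61 in the PT + HS mice. The PT + HS mice lay close together inside the ranges of both other groups. The differences from Ctrl were -0.08 in PT and 0.06 in PT + HS, each with an SE of 0.26. Without PT replicate 2 the difference in PT was -0.35, again short of the thresholds.

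Pla2g4a, at the head of both branches, varied widely within the groups, and among the Ctrl mice more than any other of the 9 genes. Log2 signals were 5.79, 4.17 and 4.95 in the Ctrl mice, 5.36, 4.69 and 4.45 in the PT mice and 5.79, 5.17 and 4.91 in the PT + HS mice. The Ctrl range spanned all injured mice. The difference from Ctrl was -0.14 in PT and 0.32 in PT + HS, each with an SE of 0.41, and the interval between PT + HS and PT, -0.45 to 1.37, included a change of more than 2-fold.

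In the prostaglandin branch, Ptgs2, the inducible cyclooxygenase, had a log2 signal of 2.89, 2.98 and 2.74 in the Ctrl mice, 2.98, 3.31 and 3.06 in the PT mice and 3.01, 3.30 and 3.11 in the PT + HS mice. All PT + HS mice lay just above all Ctrl mice, and PT replicate 1 lay below the highest Ctrl mouse by a margin that 2 decimals do not show. The differences from Ctrl were 0.24 in PT and 0.27 in PT + HS, with an interval of -0.10 to 0.64 for PT + HS, and short of the thresholds. A second probe set of Ptgs2 gave 0.17 and -0.01. Ptges, which turns prostaglandin H2 into prostaglandin E2, had a log2 signal of 4.47, 4.21 and 3.69 in the Ctrl mice, 3.82, 4.72 and 4.13 in the PT mice and 4.07, 4.21 and 4.25 in the PT + HS mice. Its groups overlapped throughout, and the differences from Ctrl were 0.10 in PT and 0.05 in PT + HS, each with an SE of 0.26.

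**Figure D2:**
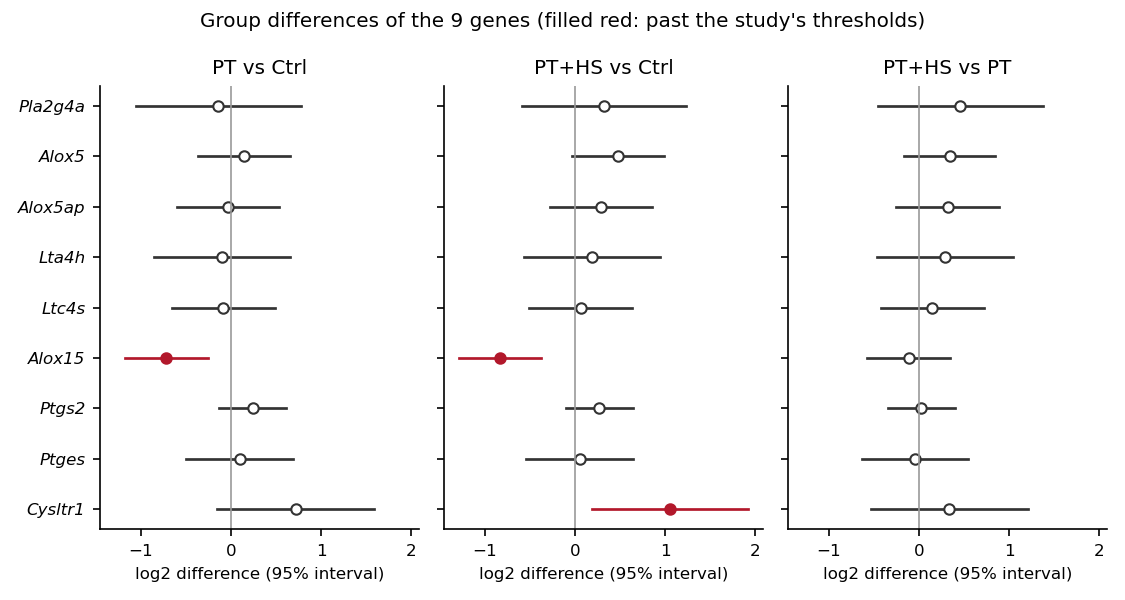
Log2 differences between groups (horizontal axis) of the 9 genes from limma, with 95% intervals, for PT against Ctrl, PT + HS against Ctrl and PT + HS against PT. Filled red points passed the study's thresholds, Alox15 at -0.72 and -0.83 against Ctrl and Cysltr1 at 1.05 in PT + HS against Ctrl, and none is filled between PT + HS and PT.

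The calls among the 9 genes are given beside the share of all 18194 genes that passed. Between PT and Ctrl 0 of 9 passed as higher, where 1.41% of all genes did, and 1 of 9 as lower, where 2.26% did. The groups did not overlap for 1 of 9, against 9.44% of all genes. Between PT + HS and Ctrl 1 of 9 passed as higher, against 1.99%, and 1 of 9 as lower, against 1.29%. The groups did not overlap for 3 of 9 (Alox15, Cysltr1 and Ptgs2), against 13.2%. For the injured groups together against Ctrl 1 of 9 passed as higher, against 1.65%, and 1 of 9 as lower, against 1.6%, and the arrays did not overlap for Alox15 alone, against 3.14%. The shares rest on 1 to 3 genes each and were not tested against those of all genes.

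At an adjusted p under 0.05, limma called 0 of 9 in each of these comparisons, where 0% of all genes passed between PT and Ctrl, 0.0055% between PT + HS and Ctrl and 0.011% between injured and Ctrl mice. At an unadjusted p under 0.05, 1 of 9 passed between PT and Ctrl (5.82% of all genes), 2 of 9 between PT + HS and Ctrl (4.86%) and 2 of 9 between injured and Ctrl mice (5.86%). The t-test named in the methods gave equal counts, with 0 after adjustment, but not the same genes throughout. Between injured and Ctrl mice limma's 2 were Alox15 and Cysltr1. With the t-test they were Alox15 and Ptgs2, and Cysltr1 no longer passed.

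The question of what the shock added is addressed by PT + HS against PT. In it the bleeding cannot be told apart from the electrolyte solution and norepinephrine that these mice received. Here 0 of 9 genes passed the study's thresholds, against 0.726% of all genes as higher and 0.396% as lower, and no gene had groups without overlap, against 7.17%. Adjusted p-values from limma were 1 for all 9, 0% of all genes passed the adjustment, and 0 of 9 had an unadjusted p under 0.05 with limma, where 2.87% of all genes did, or with the methods' t-test. Of the 9 differences 7 were positive, with a median of 0.29, beside -0.003 over all genes. The positive values ranged from 0.02 for Ptgs2 to 0.46 for Pla2g4a. This median depended on single arrays. It was 0.13 if PT replicate 2 was left out, 0.06 if PT replicate 3 was, 0.13 if PT + HS replicate 1 was and 0.14 if PT + HS replicate 2 was. Without PT replicate 1 it rose to 0.365. It was 0.04 with array weights and 0.15 with the mean of all probe sets. In the same comparison the median was 0.44 over the neutrophil markers and 0.66 over the monocyte markers, of which 2 of 10 passed as higher, and their part in the median of the 9 genes was not tested.

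Against Ctrl, the median over the 9 genes was -0.03 in PT, with 4 positive, and 0.27 in PT + HS, with 8 positive, beside -0.0003 and -0.01 over all genes. In PT it ran from -0.08 to 0.25 as single arrays were left out, the latter with 7 positive when Ctrl replicate 1 was, and it was 0.145 when PT replicate 3 was. It was also positive with array weights, at 0.149, and with repeated quantile normalization, at 0.103. In PT + HS it fell to 0.12 when Ctrl replicate 2 was left out and to 0.13 when PT + HS replicate 1 was, and it was 0.13 with the mean of all probe sets. These comparisons share the Ctrl arrays.

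The remaining pathway genes came from a list of 51, of which 45 were measured and 6 (Pla2g4b, Ggt1, Dpep2, Ptgs1, Ptges3 and Ltb4r2) were not analysed here. At the study's thresholds, 3 of the 45 were higher (1.41% of all genes) and 1 was lower (2.26%) in PT than in Ctrl. In PT + HS 5 were higher (1.99%) and none lower (1.29%) than in Ctrl. With the shock, 1 was higher (0.726%) and none lower (0.396%) than with PT alone. None passed the adjustment with limma, where the lowest adjusted p was 0.591, 0.207 and 1, in the order PT against Ctrl, PT + HS against Ctrl and PT + HS against PT. An unadjusted p under 0.05 was found for 5, 5 and 3 of the 45, beside 5.82%, 4.86% and 2.87% of all genes. The median over the 45 was 0.02, -0.01 and 0.05, in that order.

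Among the 8 measured genes for phospholipases A2 and their brake Anxa1, Pla2g7, which breaks down platelet-activating factor and circulates as a plasma enzyme, was called. It had a log2 signal of 8.09, 7.53 and 7.39 in the Ctrl mice, 8.95, 8.01 and 9.18 in the PT mice and 9.44, 9.16 and 9.36 in the PT + HS mice. The 3 PT + HS mice lay above all Ctrl mice, and PT replicate 3 lay above PT + HS replicate 2. PT + HS and PT differed by 0.61, with an interval of -0.07 to 1.29, which did not pass the thresholds. Without PT replicate 2 this difference was 0.25. Pla2g7 was 2.06-fold higher in PT and 3.13-fold higher in PT + HS than in Ctrl, with limma adjusted p-values of 0.623 and 0.207.

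Of the 10 measured genes listed with the other leukotriene and lipoxygenase enzymes, Mgst1 and Alox12 were called. Mgst1, a microsomal glutathione transferase, had a log2 signal of 8.17, 7.27 and 7.76 in the Ctrl mice, 9.42, 7.70 and 8.49 in the PT mice and 9.27, 8.48 and 9.11 in the PT + HS mice, and was 2.33-fold higher in PT + HS than in Ctrl. Mgst1 no longer passed without Ctrl replicate 2, at a log2 difference of 0.99, or without PT + HS replicate 1, at 1.06. Alox12, the platelet 12-lipoxygenase, had a log2 signal of 10.86, 11.11 and 10.70 in the Ctrl mice, 10.27, 9.89 and 10.45 in the PT mice and 10.73, 10.39 and 10.91 in the PT + HS mice. All PT mice lay below all Ctrl mice, a difference of -0.68 ± 0.21 (SE), and the PT + HS mice overlapped with both groups. The mean over 10 platelet markers, led by Ppbp and Pf4, was 9.96 to 10.23 in Ctrl mice, 9.55 to 9.77 in PT mice and 9.85 to 10.14 in PT + HS mice, so that their mean was also lowest in PT. Alox12 fell short of the fold threshold without PT replicate 2, at -0.53, or without Ctrl replicate 2, at -0.57. The part of the platelets in it was not tested.

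Of the receptors, Fpr2, which binds lipoxin A4 and formylated peptides, differed most. It had a log2 signal of 7.22, 5.86 and 6.16 in the Ctrl mice, 9.40, 7.49 and 8.34 in the PT mice and 9.61, 8.05 and 9.26 in the PT + HS mice. All injured mice lay above all Ctrl mice. In the means Fpr2 was 3.99-fold higher in PT and 5.90-fold higher in PT + HS than in Ctrl, with limma adjusted p-values of 0.591 and 0.318. Replicate 1 was the highest in every group, as it was for the mean of the neutrophil markers, and the part of the neutrophils was not tested. Ltb4r1, the high-affinity leukotriene B4 receptor, had a log2 signal of 5.48, 5.76 and 5.26 in the Ctrl mice, 6.27, 5.64 and 5.65 in the PT mice and 6.23, 5.80 and 6.29 in the PT + HS mice. It was 1.52-fold higher in PT + HS than in Ctrl, with the lowest PT + HS mouse only just above the highest Ctrl mouse. Leaving out Ctrl replicate 1 or 3 or PT + HS replicate 1 or 3 ended this call, at log2 differences of 0.49 to 0.59.

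Of the 9 prostanoid receptors, Ptger2, a receptor for prostaglandin E2 that raises cyclic AMP, was called. Signals were 3.33, 3.21 and 2.83 in the Ctrl mice, 3.67, 3.88 and 4.24 in the PT mice and 4.36, 3.90 and 4.43 in the PT + HS mice. All injured mice lay above all Ctrl mice. The group means exceeded that of Ctrl by 0.81 ± 0.22 (SE) in PT and 1.11 ± 0.22 in PT + HS, with limma adjusted p-values of 0.594 and 0.297. None of the other 8 prostanoid receptors passed the thresholds. The mean of Ptger2 over the 9 arrays, 3.76, was below the median over all genes, 4.29. Whether its signal was above background is not known here. Ptger2, Fpr2 and Pla2g7 passed in both comparisons with Ctrl without each of the 9 arrays in turn. Between PT and Ctrl, however, Pla2g7 did not pass with the methods' t-test, Ptger2 did not with array weights and Alox12 did not after repeated quantile normalization. Ltb4r1 did not pass with array weights between PT + HS and Ctrl.

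No gene passed among the 6 other prostaglandin and thromboxane enzymes measured in any comparison. Hpgds, the hematopoietic prostaglandin D synthase, had the lowest p of these between the injured and the Ctrl mice, with a difference of -0.22 ± 0.16 (SE). Over all comparisons the lowest p was that of Ptgds, the other prostaglandin D synthase, at -0.54 ± 0.24 between PT + HS and PT, where the groups did not overlap. Ptgds was named after its values were seen. Of the 8 genes for breakdown and export, Hpgd, which inactivates prostaglandins, was called between PT + HS and PT. Its log2 signal was 6.26, 5.88 and 5.23 in the Ctrl mice, 5.67, 4.80 and 4.51 in the PT mice and 7.12, 5.98 and 5.29 in the PT + HS mice, so that the groups overlapped.

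**Figure D3:**
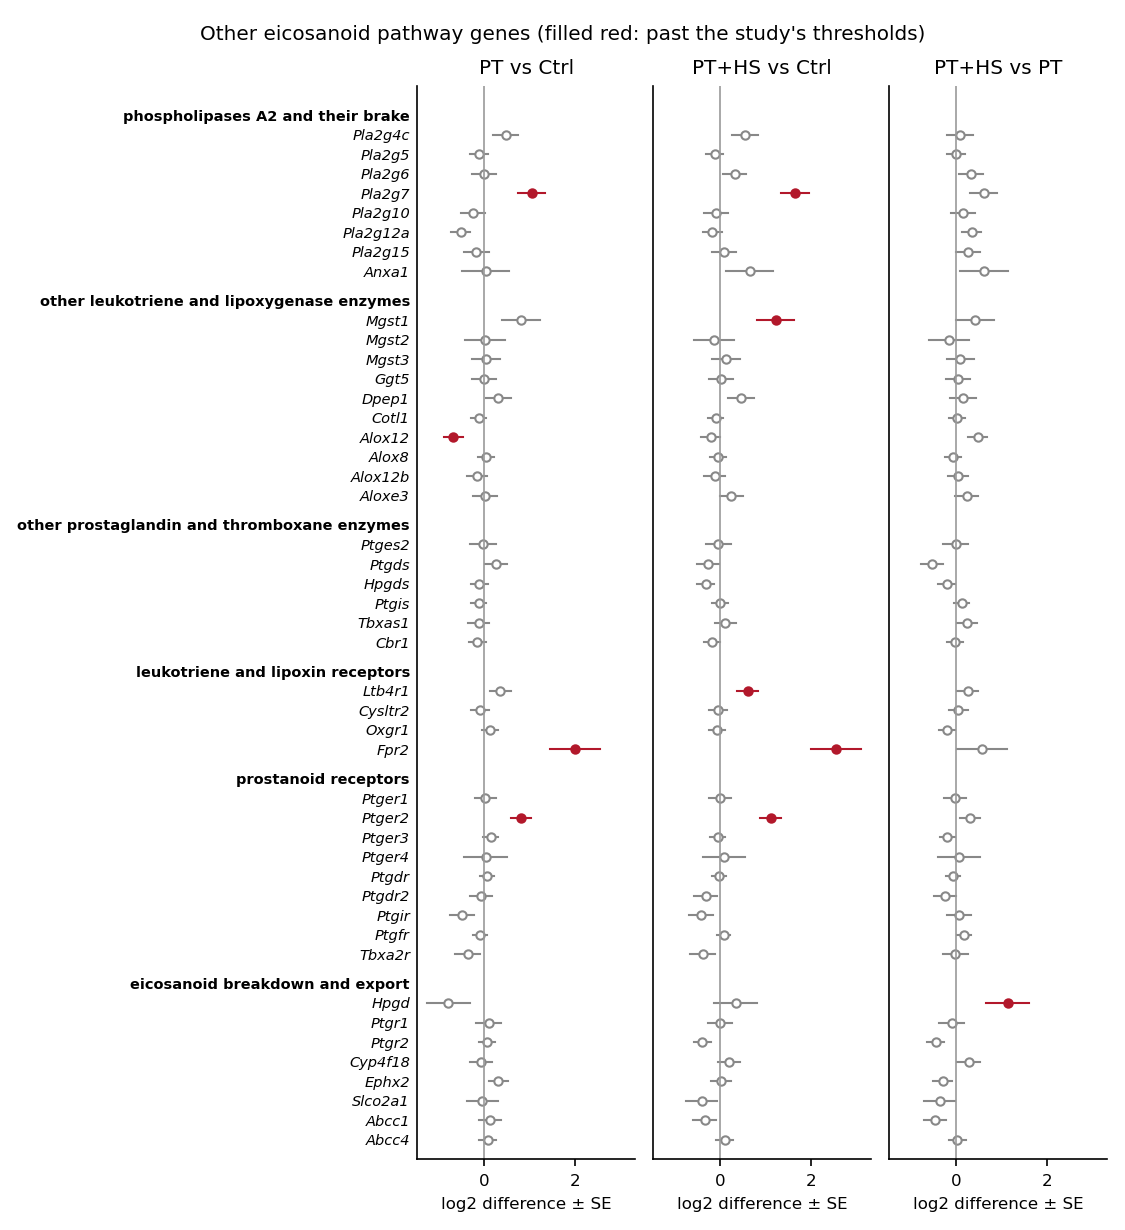
Log2 differences with their SE (horizontal axis) of 45 further eicosanoid pathway genes, grouped by role, for PT against Ctrl, PT + HS against Ctrl and PT + HS against PT. Filled red points passed the study's thresholds. Fpr2 lies farthest to the right in both comparisons with Ctrl, and Hpgd is the one filled point between PT + HS and PT.

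Across the other cell type lists, the mean over 9 B-cell markers was 6.89 to 7.80 in Ctrl mice. It was 5.24 to 6.81 in PT mice and 5.61 to 6.13 in PT + HS mice. Of these 9 markers, 8 passed the thresholds as lower in PT and 7 in PT + HS, against 2.26% and 1.29% of all genes. Of 5 NK-cell markers 2 passed as lower in PT mice and 1 in PT + HS mice, and 0 of 9 T-cell markers were called in either group by limma at the study's thresholds or at an unadjusted p under 0.05. Of 7 basophil and mast cell markers, 6 with means below the median gene, 2 passed as lower in PT and none in PT + HS. The basophils and mast cells are sources of cysteinyl leukotrienes, and the mean over their list was 3.66 to 3.97 in Ctrl mice, 3.51 to 3.79 in PT mice and 3.61 to 3.76 in PT + HS mice.

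**Figure D4:**
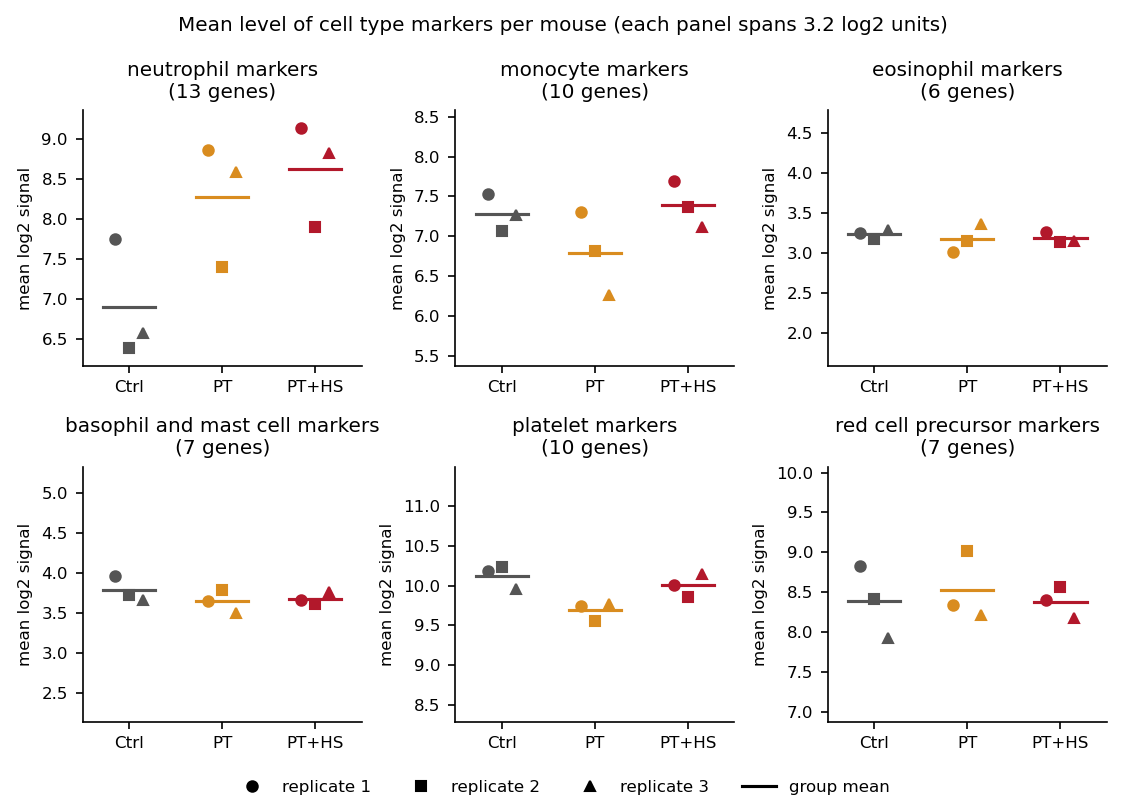
Mean log2 signal (vertical axis, each panel spanning the same number of log2 units) over the markers of 6 blood cell types in each mouse, with 1 symbol per replicate number and a line at the group mean. Neutrophil markers were at 6.38 to 7.75 in Ctrl and 7.90 to 9.14 in PT + HS, platelet markers were lowest in the PT mice, and eosinophil markers stayed between 3.01 and 3.36.

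The genes with the profile most like that of Alox15 over the 9 arrays were Camkk2, Sfxn1 and Tcta, with a root mean square difference of 0.15, 0.17 and 0.20 log2 units after each gene was centred on its own mean. Camkk2, a kinase that acts on AMP-activated kinase, differed from Ctrl by -0.86 in PT and -0.90 in PT + HS. Those most like Cysltr1 were Fcgr2b, Ctsc and Igsf6, at 0.21, 0.22 and 0.22. Fcgr2b, the inhibitory receptor for IgG, differed from Ctrl by 0.85 in PT and 1.28 in PT + HS. These genes were picked for the likeness, so that their values are a description.

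In PT, the Cysltr1 difference from Ctrl changed more with the array left out than that of Alox15. Without each array in turn, the Alox15 difference from Ctrl ran from -0.92 to -0.57 in PT and from -1.03 to -0.69 in PT + HS, and it fell short of the fold threshold in PT without Ctrl replicate 2. The Cysltr1 difference from Ctrl ran from 0.24 to 1.0 in PT and from 0.79 to 1.23 in PT + HS.

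**Figure D5:**
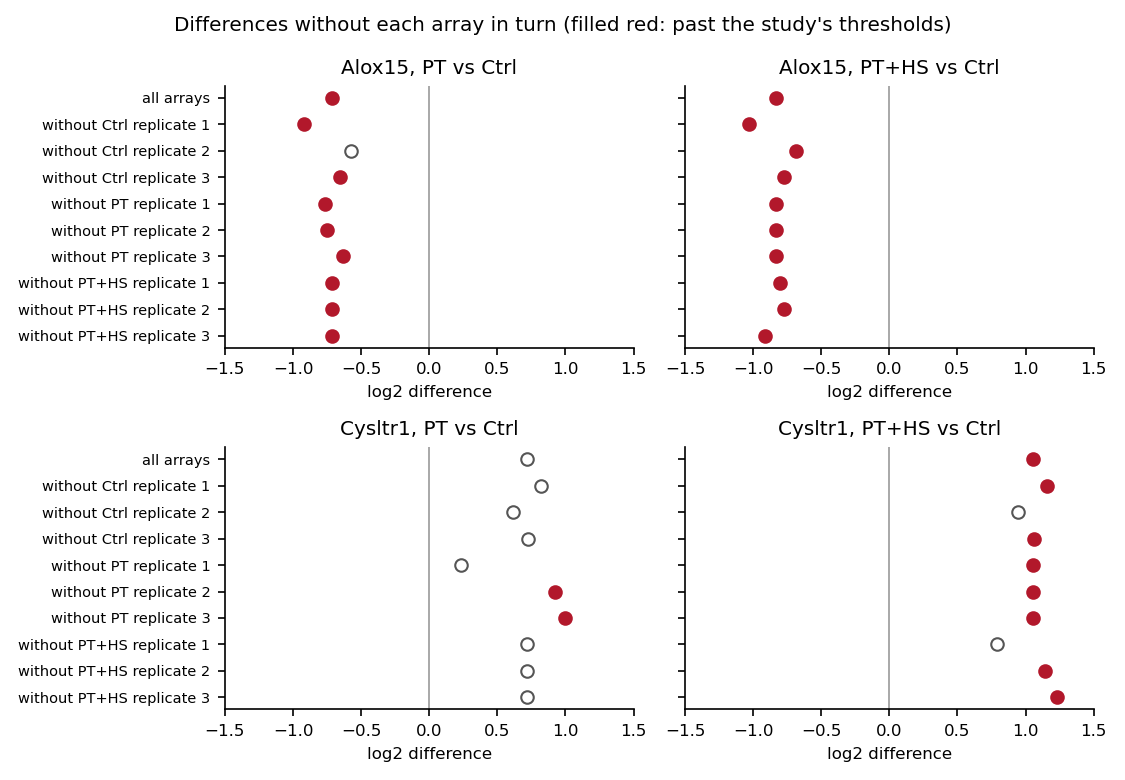
Log2 differences (horizontal axis) of Alox15 and Cysltr1 from Ctrl, with all 9 arrays and with each array left out. Filled red points passed the study's thresholds. Alox15 passed in all settings but 1, in PT without Ctrl replicate 2, whereas Cysltr1 in PT passed only without PT replicate 2 or 3.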

How the data were processed

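Blood RNA of 9 mice was measured on 9 Affymetrix arrays, 1 per animal. The authors deposited log2 values from a robust multiarray average, which corrects the background, quantile normalizes the arrays and summarizes each probe set. Expression Console and BRB-ArrayTools are named for this, without versions in the sources used here. The study's text names another array type than the deposited probe sets belong to. The raw images were not used here.

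Of 45101 probe sets, 34958 had exactly 1 gene symbol, 932 had several and 9211 none, and 34754 were given current symbols by Entrez ID. Where a gene had several probe sets, as 9012 did, the one with the highest mean was used, with no filter on low values. limma 3.58.1 in R 4.3.3 estimated 1 mean per group from all 9 arrays. Tests were two-sided and adjusted over 18194 genes by Benjamini-Hochberg. The study's thresholds were an unadjusted p under 0.05 and at least 1.5-fold. The fit was run on simulated data with independent normal noise, equal in spread on all arrays, and known shifts in PT + HS. These data held no outlying array and no correlated genes, so they cannot show how the fit handles PT replicate 2.

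Groups and replicate numbers came from the labels. The 9 genes, the pathway and marker lists and the tests were chosen with earlier results of these data known. Named were all 9 genes, every pathway gene past the thresholds, the gene with the lowest p of a list without a call, the 2 markers with the highest mean of the lists that touch a result, and the 3 genes most like each called member. The alternatives tried were the methods' t-test, the arrays of a comparison alone, array weights, equal medians, repeated quantile normalization, genes above the median level, averaged probe sets, a replicate block and each array left out. No reference genome was used.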

Additional observations from a re-analysis of the deposited data

Results flagged for a closer look

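Hpgd, the prostaglandin dehydrogenase, differed between the effects of the injured groups. Its difference from Ctrl was -0.80 in PT and 0.34 in PT + HS, each with an SE of 0.47 on the log2 scale, and the difference of these effects, which is PT + HS against PT, was 1.14 with a limma adjusted p of 1. It passed the thresholds of the study. The mice of both groups overlapped, and the call was lost without Ctrl replicate 2, PT replicate 2 or 3, or PT + HS replicate 1 or 2, at values from 0.64 to 1.21.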

How the results depend on the processing

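Of 596 differences of the 9 genes recomputed under the alternatives, 532 kept their direction and their side of the study's thresholds, 9 no longer passed, 7 passed newly, 48 changed sign while passing under neither setting and 0 were reversed. Among the 9 genes, 1 was called between PT and Ctrl, which became 2 with array weights, 0 with genes above the median level alone and 2 with a replicate block, and ran from 0 to 2 without each array. The 2 called between PT + HS and Ctrl became 0 above the median level, where Alox15 and Cysltr1 are not tested, and 1 with the mean of all probe sets, and ran from 1 to 3 without each array. The 0 called between PT + HS and PT ran from 0 to 1. The 2 called between injured and Ctrl mice became 1 with the methods' t-test, 0 above the median level and 1 with the mean of all probe sets, and ran from 1 to 2. Of the 45 pathway genes, the 4 called between PT and Ctrl became 7 with array weights. The 5 called between PT + HS and Ctrl ran from 3 to 6 without each array. The 1 called between PT + HS and PT became 0 with the methods' t-test, 0 with the arrays of the comparison alone and 2 with the replicate block, and ran from 0 to 2. The cause of these shifts was not tested, apart from the genes left untested.

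With array weights Cysltr1 differed between PT and Ctrl by 1.51, with a limma adjusted p of 0.0379, the one adjusted p under 0.05 among the 9 genes. These weights gave PT replicate 1 86.9% of the PT mean. Over its 16 alternatives the adjusted p of this difference ran up to 1. The labels do not say whether the replicate numbers pair the mice. Of 9 pairs with the same number, 3 deviated together with a correlation over 0.1, and the correlations ran from -0.115 to 0.478. Over the 9 genes alone they ran from -0.433 to 0.749. Pairs with different numbers were not compared, so that these values cannot decide on a pairing. With the replicate block Cysltr1 also passed between PT and Ctrl, at 0.72, and Hpgd and Pla2g7 between PT + HS and PT. The 3 mice per group leave wide intervals, and the values give no signal over background.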
